A study of Mus musculus with 4 samples.

Results

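A set of 10 genes of the AP-1 and immediate early response was examined in perivascular adipose tissue (PVAT) after wire injury of the femoral artery. They are *Fos*, *Fosb*, *Fosl1*, *Fosl2*, *Jun*, *Junb*, *Jund*, *Egr1*, *Ier3* and *Nr4a1*, taken by symbol from the deposited table, and all 10 were among its 12661 genes. RNA came from the tissue outside the femoral artery of wild type C57BL/6 female mice, 11 weeks old and ovariectomized, 48 h after injury (n = 2 libraries) or sham operation (n = 2 libraries). Ovariectomy was shared by both groups, so its part in any value cannot be told apart here. The tissue is mainly PVAT but is a mixture of cells, and the sources do not say whether each library was 1 mouse. The p-values therefore rest on the spread between these libraries, with variance shared across genes, and not on a known number of mice. In such bulk RNA, more cells of a type and more RNA per cell cannot be told apart.

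AP-1 is a dimer of a JUN protein with a FOS protein, or of JUN proteins alone, that binds DNA through basic leucine zippers. Several of its genes, such as *Fos* and *Jun*, belong with *Egr1*, *Ier3* and *Nr4a1* to the immediate early genes, which are switched on within minutes of growth factor, cytokine or stress signals without new protein synthesis, and for many of them the pulse is brief. They are also known to respond to the handling of tissue before its RNA is preserved. The samples at 48 h lie long after that first pulse, so the comparison asks how these genes stood at that time and not how they were first induced.

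None of the 10 genes differed between injury and sham at an adjusted p-value under 0.05 (limma, Benjamini-Hochberg adjusted over all 12661 genes), where 7.43% of all genes did, 3.76% as higher and 3.67% as lower after injury. The gene nearest the threshold was *Fos*, which was higher after injury, and *Fosb*, its close relative, had lower values after injury. *Fosl1* was the other gene without overlap between the groups, with higher values after injury. In the remaining 7 genes the 2 groups overlapped. At an unadjusted p-value under 0.05 these same 3 genes, *Fos*, *Fosb* and *Fosl1*, passed, that is 3 of 10 beside 29.5% of all genes. Groups without overlap were found in 3 of 10 members beside 61.9% of all genes. At the looser adjusted threshold of 0.1 only *Fos* passed, 1 of 10 beside 18.3% of all genes.

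The values are the signed numbers the authors deposited, treated here as log-like, on a scale whose base and centre are not stated. A value is therefore read between libraries within a gene, and differences are given in deposited units, not as fold changes. Sequencing depth is unknown. An exact permutation test of 1 gene in 2 libraries against 2 has p = 0.333 as its smallest value, and the limma p-values rest on variance shared across genes.

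**Figure D1:**
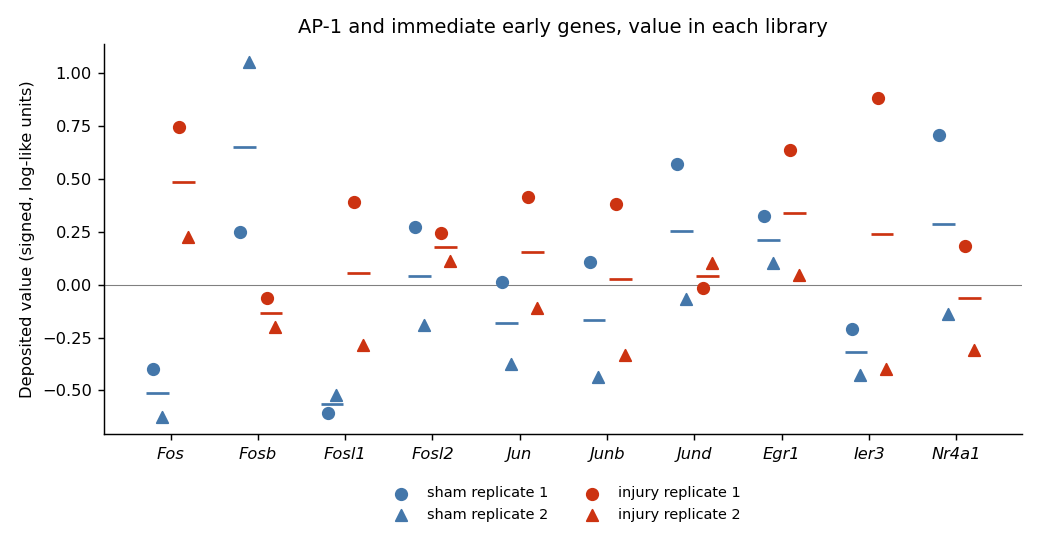
Deposited value (vertical axis, signed log-like units) of the 10 genes in each of the 4 libraries; short lines are group means, n = 2. *Fos* and *Fosl1* have both injury points above both sham points, *Fosb* has both below, and the other 7 genes overlap.

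The upstream sequences of *Fos* and *Fosb*, whose differences were of opposite sign, and of *Jun* and *Junb*, whose products pair with FOS proteins and whose libraries fell in the same order, are shown here. Each is the 250 bases before the transcription start from RefSeq on GRCm38.p6, a later build than the one used for the gene positions below. *Fos* lies at chr12:85473640-85473889 on the plus strand, *Fosb* at chr7:19310046-19310295, *Jun* at chr4:95052223-95052472 and *Junb* at chr8:84978749-84978998, all 3 on the minus strand. Capitals mark matches on either strand to the GC box (GGGCGG) and to the cAMP half-site (TGACG), which is also the start of the cAMP response element and was added after the sequences were seen.
Fos: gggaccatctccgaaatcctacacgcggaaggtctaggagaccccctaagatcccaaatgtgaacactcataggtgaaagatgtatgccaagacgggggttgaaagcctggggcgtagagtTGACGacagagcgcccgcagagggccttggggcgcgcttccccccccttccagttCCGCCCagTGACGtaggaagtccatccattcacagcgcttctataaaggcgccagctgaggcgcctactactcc
Fosb: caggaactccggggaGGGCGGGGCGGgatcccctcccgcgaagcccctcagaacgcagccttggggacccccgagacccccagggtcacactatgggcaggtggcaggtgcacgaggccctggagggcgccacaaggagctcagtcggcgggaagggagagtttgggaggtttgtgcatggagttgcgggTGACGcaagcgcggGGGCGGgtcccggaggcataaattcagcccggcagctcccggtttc
Jun: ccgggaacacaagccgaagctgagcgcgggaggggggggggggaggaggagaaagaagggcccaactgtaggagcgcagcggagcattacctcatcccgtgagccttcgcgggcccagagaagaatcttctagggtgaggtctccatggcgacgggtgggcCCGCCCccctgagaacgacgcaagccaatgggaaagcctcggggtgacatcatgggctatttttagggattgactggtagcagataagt
Junb: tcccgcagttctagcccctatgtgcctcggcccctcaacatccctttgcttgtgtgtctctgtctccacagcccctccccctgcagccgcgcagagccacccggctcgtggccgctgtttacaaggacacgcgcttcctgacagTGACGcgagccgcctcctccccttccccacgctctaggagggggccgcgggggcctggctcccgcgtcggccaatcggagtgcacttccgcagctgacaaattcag

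Upstream windows were found for 8 of the 10 genes. The GC box was present in 6 of these 8 windows, beside 32.7% of 32817 windows of the same length, and the cAMP half-site in 4 of 8, beside 17.7%. *Fos* had half-sites whose first bases lay 129 and 66 bases before the start, *Fosb* had 1 at 60 bases and *Junb* 1 at 106 bases, while the *Jun* window had none. In *Fosb* the GC boxes that begin 235 and 230 bases before the start overlap by 1 base. The *Nr4a1* window, not printed, held 4 half-sites and 3 GC boxes. None of the 8 windows held the letters of the AP-1 site (TGANTCA, in 6.75% of all windows), the cAMP response element (TGACGTCA, in 1.55%), the CArG box bound by serum response factor (in 1.47%) or the EGR site (GCGTGGGCG, in 0.536%). *Egr1* and *Fosl1* were not matched. A match describes letters and is not a site of binding, and these windows do not reach further upstream.

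Among the FOS genes, *Fos* encodes c-Fos, which activates transcription as the partner of JUN proteins. It lies on chromosome 12 from 86814840 to 86818223 of mm9 (plus strand, GENCODE annotation). Its values were -0.40 and -0.62 in the sham libraries and 0.74 and 0.22 in the injury libraries. Every injury value was above every sham value, although the injury libraries were 0.52 apart. The means were -0.51 ± 0.16 (SD, n = 2) after sham operation and 0.48 ± 0.37 (SD, n = 2) after injury. The difference was 0.996 units (standard error 0.22, 95% interval 0.46 to 1.54, adjusted p = 0.0540 from limma), the place of rank 533 from the top among all genes. A block for the replicate number brought *Fos* under the threshold (adjusted p = 0.0462 from limma), as did quantile normalization of the columns (0.0470). With each library left out in turn the difference lay between 0.74 (injury replicate 1) and 1.26 (injury replicate 2). The call of *Fos* thus lies at the threshold and turns on the setting, while its direction was the same in all settings tried.

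*Fosb* encodes FosB, a close relative of c-Fos known also for a truncated, long-lived splice form. It lies on chromosome 7 from 19888070 to 19895394 (minus strand). Sham values were 0.25 and 1.05 and injury values were -0.07 and -0.20. Both sham libraries were above both injury libraries, and sham replicate 2 stood well above the other sham library. The difference was -0.78 units (standard error 0.28, 95% interval -1.48 to -0.08, adjusted p = 0.139 from limma). Without sham replicate 2 it shrank to -0.38, and without sham replicate 1 it was -1.18, so its size was set by single sham libraries.

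*Fosl1* encodes Fra-1, a FOS protein without the transactivation domain of c-Fos. The gene is on chromosome 19 from 5447703 to 5455945 (plus strand). It was at -0.61 and -0.52 in the sham libraries and at 0.39 and -0.29 in the injury libraries. The sham values were close together, and injury replicate 2 stood nearer to them than to injury replicate 1. The difference was 0.62 units (standard error 0.24, 95% interval 0.01 to 1.23, adjusted p = 0.167 from limma). It came to 0.96 without injury replicate 2 and to 0.28 without injury replicate 1. *Fosl1* overlaps *Ccdc85b* on the other strand, a gene whose difference was -0.25 (adjusted p = 0.364 from limma). The kit kept strand information, but whether the counting used it is not stated.

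*Fosl2* encodes Fra-2, the other FOS protein of this kind, and lies on chromosome 5 from 32438845 to 32460204 (plus strand). Its sham values were 0.27 and -0.19 and its injury values 0.24 and 0.11, both between the sham values. The difference of 0.14 units was smaller than the spread of the sham libraries (95% interval -0.35 to 0.63, adjusted p = 0.688 from limma). With sham replicate 2 left out it was -0.10, and with sham replicate 1 left out 0.37.

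The FOS genes thus spanned the whole range of the 10 members, with *Fos* at the upper end and *Fosb* at the lower end of the plotted differences. Neither gene passed the threshold over all genes.

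**Figure D2:**
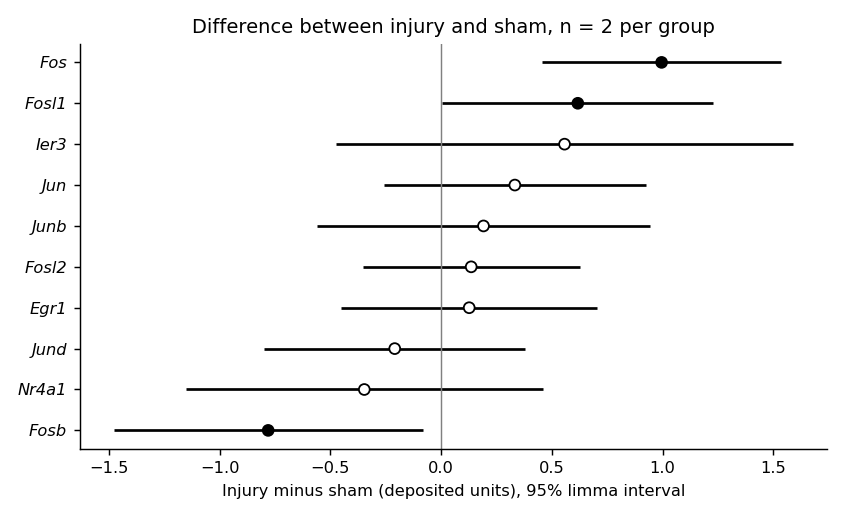
Difference between injury and sham (horizontal axis, deposited units) with its 95% interval from limma, n = 2 per group; filled points mark genes whose groups do not overlap. *Fos*, *Fosl1* and *Fosb* have intervals that leave out 0 before adjustment, and the other 7 intervals hold 0.

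Among the JUN genes, *Jun* encodes c-Jun, the main transactivating partner of FOS proteins and a substrate of the JNK kinases. It lies on chromosome 4 from 94715725 to 94718913 (minus strand). Sham values were 0.01 and -0.38 and injury values 0.41 and -0.11. The libraries alternated, with injury replicate 1 highest, then sham replicate 1, injury replicate 2 and sham replicate 2. The difference was 0.33 units (95% interval -0.26 to 0.92, adjusted p = 0.401 from limma). With injury replicate 1 left out it was 0.073, and with injury replicate 2 left out 0.59.

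*Junb* encodes JunB, which activates more weakly than c-Jun and can restrain it. Its gene is on chromosome 8 from 87500811 to 87502617 (minus strand). Its values, 0.10 and -0.44 after sham operation and 0.38 and -0.33 after injury, fell in the same order of libraries as those of *Jun*. The gap within each group, 0.54 in sham and 0.71 in injury, was larger than the difference of 0.19 between the groups (95% interval -0.56 to 0.94, adjusted p = 0.714 from limma). With injury replicate 1 left out that difference was -0.16, and with injury replicate 2 left out it was 0.55.

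*Jund* encodes JunD, the JUN protein that resting cells are known to hold at steady levels. The gene is found on chromosome 8 from 73221638 to 73224515 (plus strand). It was at 0.57 and -0.07 in the sham libraries and at -0.02 and 0.10 in the injury libraries. Sham replicate 1 stood above the other 3 libraries. The difference was -0.21 units (95% interval -0.80 to 0.38, adjusted p = 0.597 from limma), and it was 0.11 without sham replicate 1. *Jun*, *Jund* and *Egr1* each overlap a gene on the other strand in the annotation, none of which is listed in the table.

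For the JUN genes, then, the differences ran from -0.21 to 0.33 and no gene had groups without overlap. The intervals still admit differences of up to 0.94 units, so similar levels in both groups were not shown.

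The other 3 members act outside the AP-1 dimer. *Egr1* encodes a zinc finger transcription factor induced by serum, shear and wounding in vessels, and lies on chromosome 18 from 35020861 to 35024638 of mm9 (plus strand). Its values were 0.32 and 0.10 after sham operation and 0.63 and 0.04 after injury. Injury replicate 1 was the highest of the 4 libraries and injury replicate 2 the lowest. The difference was 0.13 units (95% interval -0.45 to 0.71, adjusted p = 0.754 from limma), and it turned to -0.17 without injury replicate 1.

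*Ier3*, a stress-inducible gene whose product modulates cell survival, lies on chromosome 17 from 35958629 to 35959868 (plus strand). It was at -0.21 and -0.42 in the sham libraries and at 0.88 and -0.40 in the injury libraries. Injury replicate 1 alone stood apart, and the gap of 1.28 between the injury libraries was larger than that of 99.1% of all genes. The difference was 0.56 units (standard error 0.41, 95% interval -0.48 to 1.59, adjusted p = 0.420 from limma). Dropping injury replicate 2 raised the difference to 1.20, and dropping injury replicate 1 instead brought it to -0.08. Each of these fits keeps a single injury library, so the gap between the injury libraries does not enter them and only the sizes are given. Injury replicate 1 thus decided both the size and the sign of the difference.

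*Nr4a1* encodes the orphan nuclear receptor Nur77, an immediate early gene of macrophages, vascular cells and brown adipocytes. Its position is on chromosome 15 from 101097277 to 101105223 (plus strand). Sham values were 0.71 and -0.14 and injury values 0.18 and -0.31. The gap of 0.85 between the sham libraries was larger than that of 98.2% of all genes. The difference was -0.35 units (95% interval -1.15 to 0.46, adjusted p = 0.521 from limma). With sham replicate 2 left out it was -0.77, and with sham replicate 1 left out 0.08.

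Much of the variation of the 10 genes lay between libraries of the same group. The median distance between the 2 sham libraries was 0.43 units over the members and 0.15 over all genes. Between the injury libraries it was 0.52 over the members and 0.19 over all genes. Sham replicate 1 was above sham replicate 2 in 8 of the 10 genes, all but *Fosb* and *Fosl1*, where 51.6% of all genes were. Injury replicate 1 was above injury replicate 2 in 9 of 10, all but *Jund*, where 48.9% of all genes were. Both held in 7 of the 10, where 24.2% of all genes had both. *Jun*, *Junb* and *Ier3* shared 1 order of the 4 libraries. The replicate numbers do not mark a known pairing of mice or days, and over all genes the deviations of equal numbers were not positively correlated (r = -0.09 across 12661 genes).

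**Figure D3:**
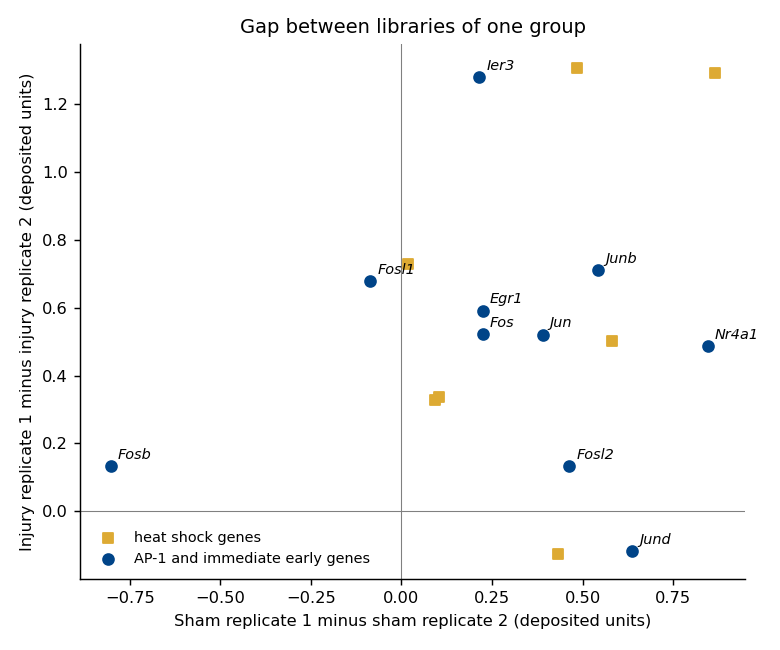
Gap between the 2 sham libraries (horizontal axis) and between the 2 injury libraries (vertical axis), replicate 1 minus replicate 2 in deposited units, for the 10 genes (circles) and the 7 heat shock genes (squares). In the upper right lie 7 of the 10 genes, where replicate 1 was higher in both groups.

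Heat shock genes, which like immediate early genes are known to respond to handling, also differed between the replicates of a group. All 7 that were examined (*Hspa1a*, *Hspa1b*, *Hsph1*, *Dnajb1*, *Hspa8*, *Hspb1* and *Hsp90aa1*) were higher in replicate 1 of the sham libraries than in replicate 2, and 6 of 7 were so in the injury libraries. Their mean was 0.59 and 0.22 in the sham libraries and 0.49 and -0.13 in the injury libraries. Both gaps were positive in 6 of the 7, in 8 of 11 other AP-1 and bZIP genes, 17 of 33 other immediate early genes, 12 of 26 MAP kinase and serum response factor genes, 5 of 10 co-repressors 7 of 18 AP-1 targets and 3 of 5 skeletal muscle markers, beside 24.2% of all genes. They were so in 2 of 7 macrophage, 2 of 6 fibroblast and 1 of 6 endothelial markers, and in 0 of the 6 neutrophil, 9 adipocyte, 6 brown adipocyte, 5 smooth muscle, 5 Schwann cell and 2 lymphocyte markers. None of the 7 heat shock genes was called between injury and sham (2 at an unadjusted p-value under 0.05), beside 7.43% of all genes, and their median difference was -0.13. The mean of the 10 members was 0.10 and -0.16 in the sham libraries and 0.38 and -0.12 in the injury libraries. The part of handling in the values of the members was not tested.

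Markers of cells that enter or leave the tissue also differed between libraries. Macrophage markers (7 of 8 listed) were higher in every injury library than in every sham library in 7 of 7, beside 4003 of 12661 genes. Their list means were -1.13 and -1.02 after sham operation and 0.50 and -0.15 after injury. Neutrophil markers, 6 of 8 listed, did the same in 6 of 6, with list means of -1.35 and -0.94 after sham operation and 1.29 and 0.20 after injury. Both lists were highest in injury replicate 1, as were 6 of the 10 members, beside 30.5% of all genes. Smooth muscle markers went the other way in 5 of 5, beside 3831 of 12661 genes. Their list means were 1.70 and 0.998 after sham operation and -1.33 and -0.25 after injury. All 9 adipocyte markers were listed, with list means of 0.21 and 0.34 after sham operation and -0.29 and 0.13 after injury. Of these 9, 5 were lower after injury without overlap and 1 was called, as lower. Mean values after injury were below those after sham operation in 6 of 6 endothelial, 5 of 5 Schwann cell, 5 of 5 listed skeletal muscle and 5 of 6 fibroblast markers, and above them in 6 of 6 brown adipocyte markers. By limma, 3 macrophage, 2 neutrophil and 4 brown adipocyte markers were called higher, and 4 smooth muscle, 3 fibroblast, 2 endothelial and 2 Schwann cell markers lower, beside 3.76% and 3.67% of all genes. Of 7 lymphocyte markers 2 were listed, and none of 5 epithelial markers was. The part of these cells in the values of *Fos*, *Fosl1* and *Fosb* was not tested.

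**Figure D4:**
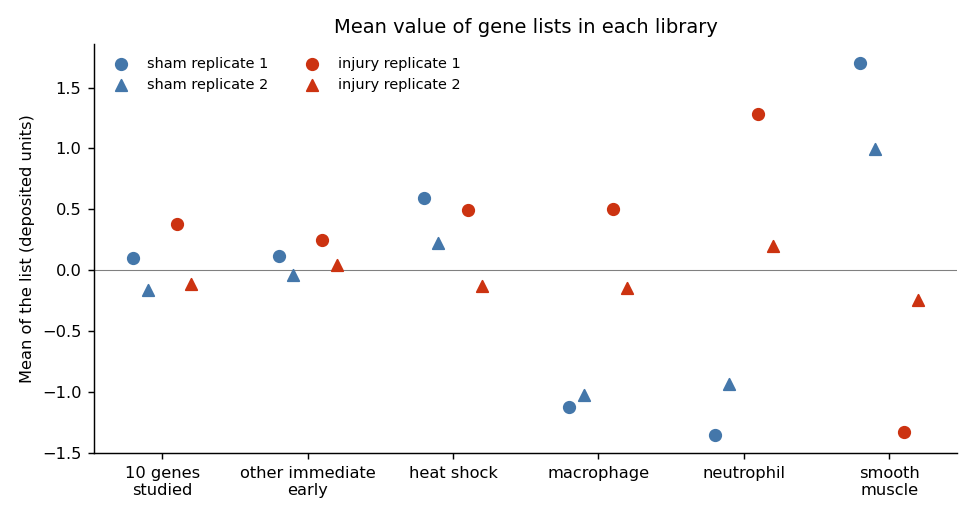
Mean deposited value (vertical axis) of gene lists in each library. Macrophage, neutrophil and smooth muscle lists separate injury from sham, while the 10 genes, the other immediate early genes and the heat shock genes are higher in replicate 1 than in replicate 2 of each group.

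The wider family was read from lists of related genes in the same fit. Of 11 other AP-1 and related bZIP genes analysed, 0 were called by limma and 5 had an unadjusted p-value under 0.05, beside 7.43% and 29.5% of all genes. Their median difference was 0.35, beside 0.01 over all genes, and it was 0.19 with sham replicate 2 left out and 0.57 with injury replicate 2 left out. *Atf3*, a stress-induced partner of JUN proteins, was at -0.15 and -0.96 after sham operation and at 0.89 and 0.20 after injury. The 2 groups differed by 1.10 units (standard error 0.35), which missed the threshold (adjusted p = 0.110 from limma) but passed it with the block for the replicate number (0.0368). With each library left out in turn it lay between 0.70 (sham replicate 2, adjusted p = 0.340) and 1.51 (sham replicate 1, adjusted p = 0.191 from limma). *Maff*, a small MAF factor, had a difference of -0.32 (adjusted p = 0.193 from limma). In 8 of the 11 genes the groups did not overlap, 6 of them higher and 2 lower, beside 61.9% of all genes.

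Of 33 other immediate early genes analysed, 1 was called, as higher, beside 3.76% of all genes. An unadjusted p-value under 0.05 was found in 12 of the 33, beside 29.5% of all genes, and groups without overlap in 63.6%, beside 61.9%. The median difference was 0.09, which turned to -0.043 with sham replicate 2 left out. It was 0.22 with sham replicate 1 or injury replicate 2 left out. The called gene was *Egr2*, the relative of *Egr1*, which is known in Schwann cells and in macrophages. Its values were -0.78 and -0.75 after sham operation and 0.48 and 0.25 after injury, a difference of 1.13 units (standard error 0.15, adjusted p = 0.0291 from limma). With each library left out in turn the difference lay between 1.01 and 1.24. Without sham replicate 1 or 2 the adjusted p-value was 0.176 or 0.116, in fits that called 0 and 1 of all 12661 genes, and without injury replicate 1 it was 0.0533 (limma). *Egr3* overlapped between the groups, with a difference of -0.28 (adjusted p = 0.692 from limma), which was -0.87 with injury replicate 1 left out and 0.31 with injury replicate 2 left out. *Nr4a2*, a relative of *Nr4a1*, had a difference of -0.50 without overlap (adjusted p = 0.0758 from limma), and *Nr4a3* one of 0.22 with overlap (adjusted p = 0.631). *Ier2* and *Myc* differed by 0.09 each (adjusted p = 0.774 and 0.838 from limma). With 1 library left out the signs of *Nr4a3*, *Ier2* and *Myc* also turned, each at -0.02 to -0.11 without sham replicate 2.

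Genes that feed signals into the immediate early genes were read in the same way. Of 26 genes analysed for MAP kinases, serum response factor and its partners, none was called by limma (3 at an unadjusted p-value under 0.05), beside 7.43% and 29.5% of all genes. The groups did not overlap in 46.2% of the 26, beside 61.9% of all genes, and the median difference was -0.01, with single differences from -0.60 to 0.34. That median was 0.048 with sham replicate 1 left out and -0.086 with injury replicate 1 left out. Of 10 genes for co-repressors and modifiers of AP-1 and EGR proteins none was called (1 at an unadjusted p-value under 0.05), with a median of -0.05 that was 0.010 with sham replicate 1 left out and -0.19 with sham replicate 2 left out. Of 18 genes described as AP-1 targets, 8 had an unadjusted p-value under 0.05, beside 29.5% of all genes. Groups without overlap were found in 77.8% of the 18, beside 61.9% of all genes. Of the 18, 3 were called, all higher, beside 3.76% of all genes called higher. They were *Spp1*, the gene of the matrix protein osteopontin, with a difference of 2.25 (adjusted p = 0.0370), the macrophage elastase gene *Mmp12* with 2.05 (adjusted p = 0.0285) and the hyaluronan receptor gene *Cd44* with 1.46 (adjusted p = 0.0318, all from limma). The median of these 18 genes was 0.53, and it was 0.32 with injury replicate 1 left out and 0.995 with injury replicate 2 left out. With sham replicate 1 or 2 left out the differences were 1.67 and 2.83 for *Spp1*, 1.76 and 2.34 for *Mmp12* and 1.22 and 1.70 for *Cd44*. None of the 3 was called in those fits (adjusted p-values of 0.113 to 0.179), in which 0 and 1 of all genes were. Without injury replicate 1 *Spp1* (0.0886) and *Cd44* (0.0687 from limma) were not called either. These 3 targets are known in macrophages too, and the macrophage list was also higher after injury. The part of macrophages in their values was not tested.

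**Figure D5:**
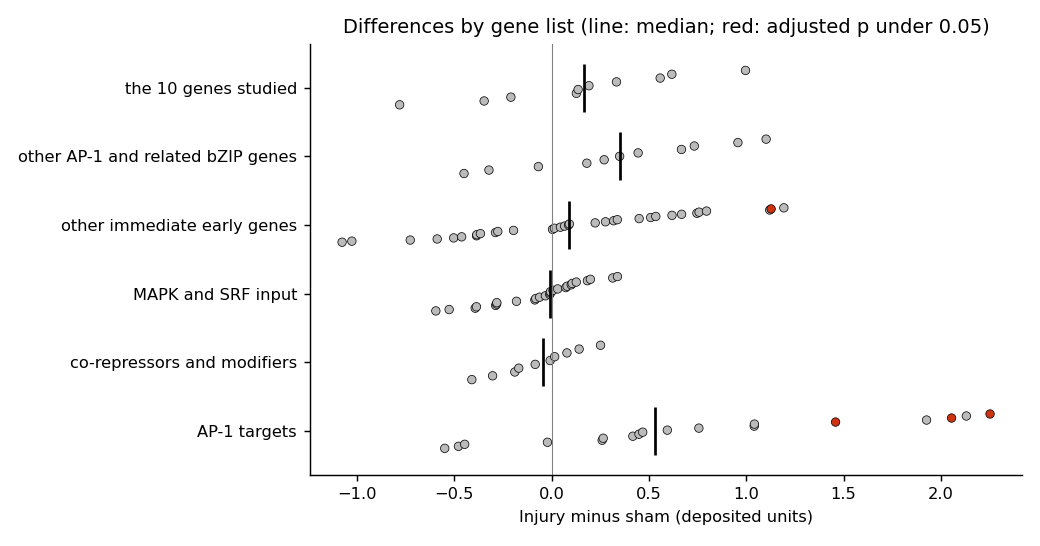
Difference between injury and sham (horizontal axis, deposited units) of each gene of the 10 studied and of 5 related lists; vertical lines are list medians and red points have an adjusted p-value under 0.05. No red point lies among the 10 genes, and the red points in the other lists are *Egr2*, *Cd44*, *Mmp12* and *Spp1*.

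The genes whose values over the 4 libraries came nearest to those of *Fos*, by Euclidean distance among genes outside the lists, were *Arid3a* (distance 0.07) and *Fam134b* (0.12). For *Jun* they were *Dnmt3l* (0.11) and *Rnf34* (0.12), for *Egr1* *Ric1* (0.15) and *Abtb2* (0.18), and for *Nr4a1* *Atp10a* (0.16) and *Nes* (0.20). *Fam134b* differed by 0.96 units between injury and sham and passed the threshold (adjusted p = 0.0467 from limma). *Arid3a* differed by 0.95 and did not (adjusted p = 0.0549). With 4 libraries such likeness is a description only, and it takes the deposited scale to be alike between genes.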

How the data were processed

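The authors used 480 ng of total RNA for each stranded mRNA library and read it as 150 bp pairs. Per the labels and the methods, reads were checked with FastQC 0.11.8, trimmed with cutadapt 1.18 and Trimmomatic 0.39, aligned to mm9 with STAR 2.6.0a, counted with featureCounts and tested with DESeq2 1.28.0. The authors deposited 1 signed score per gene and library, not a count, and how it was made from counts is not stated. The scores run from -2.27 to 6.45 and 50.5% lie below 0. Depth and abundance are unknown, so no filter on low values was used and no detection limit is given.

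Injury and sham were compared with limma 3.58.1 in R 4.3.3 (lmFit and eBayes, group as the only term, 4 libraries, two-sided, 3.48 prior and 2 residual degrees of freedom), with Benjamini-Hochberg adjustment over 12661 genes and a threshold of 0.05. Intervals are at 95% and not adjusted. In 10 simulated runs of this comparison over 12661 genes with 200 genes changed, 20.8% of genes changed by 1 unit and 91.9% of those changed by 2 units were called. In the real data 941 genes were called, so the adjustment was not the same. The simulated spread was drawn from that of all genes, and the libraries of a group lay further apart in the members. These shares therefore do not carry over to the 10 genes. The alternatives were a replicate block, each library left out, columns brought to one spread, quantile normalization, a robust prior for the variance, a threshold of 0.1 and identical rows counted once. Leaving out 1 library left 1 in its group, so the residual spread came from the other group alone. Calls in those fits are not ordinary tests of the 2 groups.

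The members and lists were chosen with earlier results of these data known, and 1 gene of the related lists is not reported here. Named were all 10 members, called genes of the pathway lists, *Atf3*, *Maff*, *Egr2*, *Egr3*, *Nr4a2*, *Nr4a3*, *Ier2* and *Myc*, and the 2 nearest genes to 4 members. Called genes of the marker lists were also to be named and are given as counts. Gene positions come from GENCODE on NCBIM37 (mm9), upstream sequences from RefSeq on GRCm38.p6. Python 3.11.15 with numpy 2.4.6, pandas 2.3.3 and matplotlib 3.10.9 made the tables and plots.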

Additional observations from a re-analysis of the deposited data

How the results depend on the processing

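With 10 alternatives for each of the 10 genes, 87 of 100 values kept their direction and their side of the threshold. Of the rest, 6 passed the threshold that had not, some of them in fits with 1 library in a group. The other 7 changed sign, all 7 with 1 library left out. Among the 10 genes, 0 were called (7.43% of all genes), and 1 with the replicate block (5.4%), 1 after quantile normalization (8.38%) and 1 at a threshold of 0.1 (18.3%), *Fos* each time. With each library left out 0 to 3 were called, the 3 being *Fos*, *Fosl1* and *Ier3* without injury replicate 2, where 14.1% of all genes were called. With each library left out the difference was -0.10 to 0.37 for *Fosl2*, -0.16 to 0.55 for *Junb*, -0.53 to 0.11 for *Jund*, -0.17 to 0.42 for *Egr1*, -0.082 to 1.20 for *Ier3* and -0.77 to 0.075 for *Nr4a1*. It was -0.87 to 0.31 for *Egr3*, -0.10 to 0.54 for *Nr4a3*, -0.11 to 0.29 for *Ier2* and -0.21 to 0.38 for *Myc*, which was at -0.019 after quantile normalization. The causes were not tested.

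Over all genes 941 were called, and 2317 at a threshold of 0.1 (1166 higher, 1151 lower). The replicate block gave 684 calls, 303 of them lower. With each library left out 0 to 1790 genes were called (0 to 943 higher, 0 to 847 lower). Leaving out sham replicate 1 left 0 calls by limma (1960 genes at an unadjusted p-value under 0.05), sham replicate 2 left 1 (2553 genes) and injury replicate 1 left 284. Of other AP-1 and bZIP genes 0 were called by limma, 1 with the replicate block, 2 at 0.1 and 0 to 2 with each library left out. Of other immediate early genes 1 was called, 2 after quantile normalization, 2 with columns scaled to one spread, 6 at 0.1 and 0 to 12 with each library left out. Of the MAP kinase and serum response factor genes 1 was called at 0.1, and 0 to 1 with each library left out. Of the AP-1 targets 0 to 11 were called with each library left out. The replicate numbers mark no known pairing, and the block takes 1 of the 2 residual degrees of freedom.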
